A study of Mus musculus with 10 samples.

Results

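The mRNAs described here are 10 known or reported carriers of AU-rich elements whose abundance was followed in mouse fetal livers lacking the mRNA decay factor Zfp36l2. They are Ier3, Pim1, Myc, Mcl1, Ccnd1, Notch1, Bcl2, Stat5b, Plaur and Plk3. Every probe set whose platform annotation gives exactly 1 gene symbol, and that symbol one of these 10, was taken. This gave 24 probe sets of 45037 on the array, and 10 genes of the 18193 that the annotation names by a single symbol. The array was hybridised with RNA of 5 Zfp36l2 knockout (KO) and 5 wild type (WT) fetuses, 1 liver per array, at embryonic day 14.5. All fetuses came from a mixed b6 and 129 background, and the labels do not describe the knockout allele. The comparison asks whether any of the 10 mRNAs was more abundant in livers without the decay factor.

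AU-rich elements are stretches of adenine and uracil in the 3' untranslated region of many short-lived mRNAs. Proteins of the tristetraprolin family, encoded by Zfp36, Zfp36l1 and Zfp36l2, bind such elements through a pair of zinc fingers and recruit the enzymes that shorten the poly(A) tail, after which the mRNA is degraded. Their known targets are cytokine, cell cycle, survival and signalling mRNAs. Blood is formed mainly in the liver at midgestation, so the organ holds red cell precursors, megakaryocytes, myeloid cells and stem cells beside hepatoblasts. The array measures steady-state mRNA in the whole organ and not decay, and fewer cells of a type cannot be told apart from less mRNA per cell. The 3' untranslated sequences of the members were not analysed here.

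Values are linear intensities after quantile normalization, in arbitrary units, and an intensity is compared only with the same probe set in other livers. For the test, values under 16 were set to 16, and a change is the mean log2 value in KO minus that in WT from limma, with its standard error (SE). A probe set or gene is called where its Benjamini-Hochberg adjusted p over 27022 tested probe sets is under 0.05, and a gene is represented by its tested probe set with the highest mean. Array medians before normalization were 19.5 to 24.2 in KO and 22.0 to 25.01 in WT. Across the array limma called 20 genes higher and 22 lower in KO among 12821 tested, which is 0.156% and 0.172%, or 0.328% in either direction. Of the 27022 probe sets 0.107% were called higher and 0.104% lower, together 0.211%, and with arrays scaled to a common median the split was 69 higher and 25 lower, against 29 and 28. For genes it was then 37 higher and 20 lower. Hepatoblast markers were bright in both genotypes, with an Afp mean of 16287 in KO and 16358 in WT, whereas the T cell markers Cd3e and Cd3g averaged 0.0843 and -2.83 over all livers. Several livers of both genotypes shared the Afp value 16538.5, which quantile normalization assigns by rank. The similar Afp means therefore do not measure hepatoblast content.

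Of the 9 member mRNAs that could be tested, none was called higher and none lower in livers without Zfp36l2. After a filter on dim probe sets that ignored genotype, 20 member probe sets of 9 genes were tested, and limma called 0 of them in either direction, with a smallest adjusted p of 0.499. At an unadjusted p under 0.05 there was 1 member gene, Ier3, and it was lower in KO. With arrays scaled to a common median the 1 gene was Ccnd1, higher in KO (0.31, limma adjusted p = 0.436), and without KO liver 3 there were 2, Ccnd1 higher (0.36, adjusted p = 0.349) and Ier3 lower. The same threshold was passed by 11.4% of all genes tested, 5.94% higher and 5.44% lower, and by 9.75% of probe sets, 5.01% higher and 4.74% lower. In no member probe set were the 5 KO values separated from the 5 WT values, a separation found in 2.79% of all genes and 2.33% of probe sets. Changes were positive in 5 of the 9 member genes (50.1% of all genes tested) and in 11 of the 20 member probe sets (49.2% of all probe sets). Their median change was 0.01 on the log2 scale over the 9 genes, against 0.00018 over all genes tested. Plk3 and 3 of the 5 Bcl2 probe sets were too dim to be tested.

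**Figure D1:**
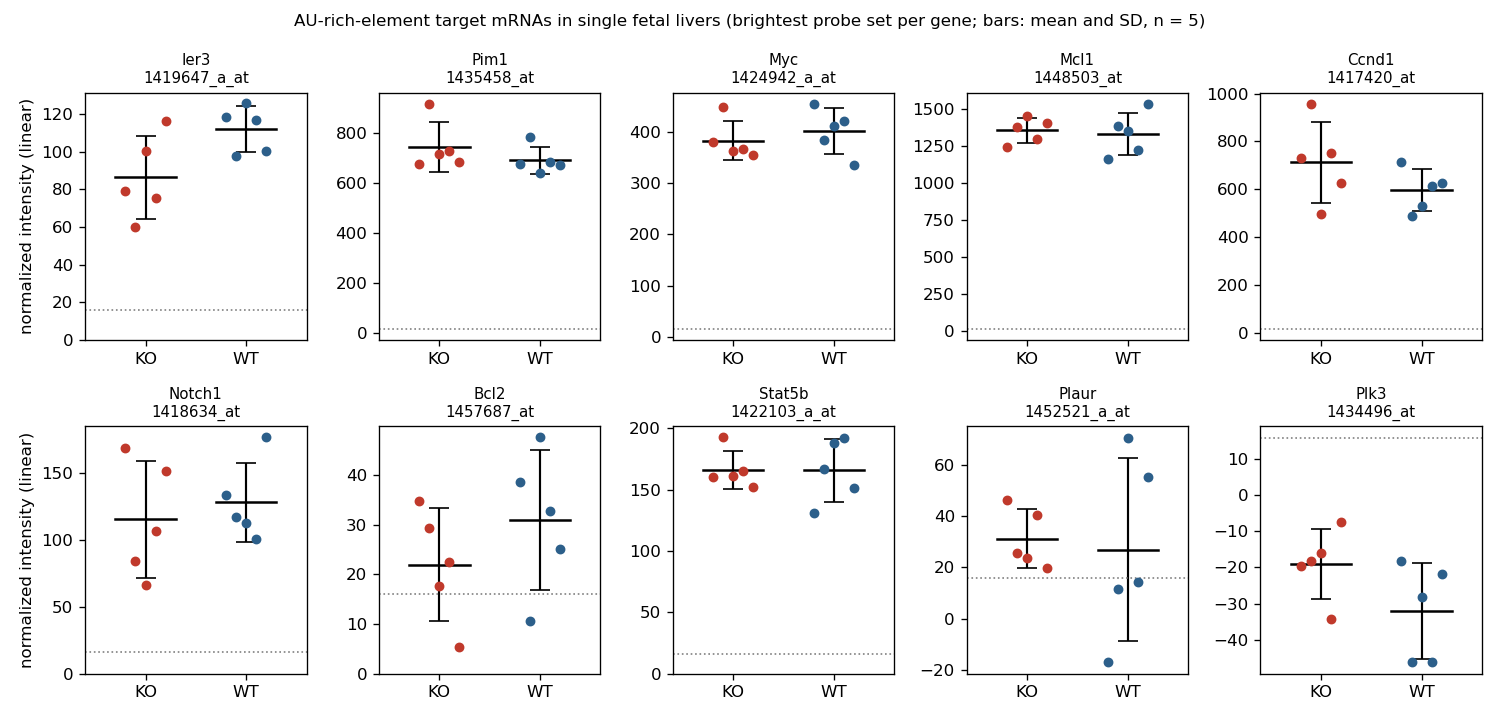
Normalized intensity (arbitrary units) of the members in each liver, KO left of WT, 1 panel per gene with its own vertical axis; points are livers and bars are means with SD over 5 livers, and the dotted line is the floor of 16. In every panel the KO and WT points share part of their range, and Plk3 lies below 0 in all 10 livers.

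The gene disrupted in the knockout was checked first. Zfp36l2 probe set 1437626_at read 108, 82.3, 109, 103 and 108 in KO livers 1 to 5, against 396, 397, 596, 391 and 389 in WT livers 1 to 5. Every KO liver was below every WT liver, so the genotypes did not overlap, and the change was -2.08 ± 0.13 (SE; limma, adjusted p = 1.47e-06). Of its other probe sets, 1451034_at was dim with a change of -0.25 ± 0.31 (adjusted p = 0.858) and 1439054_at was too dim to be tested. The position of these probe sets relative to the disrupted part of the gene was not analysed.

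Both other family members were nominally higher without Zfp36l2, and neither was called. Zfp36l1 probe set 1450644_at read 897, 1056, 897, 831 and 985 in KO livers, against 579, 625, 647, 769 and 798 in WT livers. All KO livers were above all WT livers, and the change was 0.46 ± 0.09 with a limma adjusted p of 0.0584. It was called without WT liver 5 (adjusted p = 0.0132), and with median scaling, robust fitting, array weights or the replicate number as a block (adjusted p of 0.0263 to 0.0406). Its second probe set, 1422528_a_at, overlapped between genotypes with a change of 0.45 ± 0.19 (adjusted p = 0.450). Zfp36 itself, the founding member of the family, read 64.4, 69.0, 85.4, 73.6 and 77.4 in KO livers, against 50.6, 42.8, 55.6, 43.4 and 65.5 in WT livers. The lowest KO liver, 64.4, was below the highest WT liver, 65.5, and the change was 0.53 ± 0.20 (adjusted p = 0.385).

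Ier3, a stress-induced regulator of survival whose mRNA is an established target of tristetraprolin, was the member with the smallest p, and its change was negative. Its single probe set, 1419647_a_at, read 78.8, 60.2, 100.3, 75.6 and 116 in KO livers, against 118, 97.6, 126, 117 and 100.4 in WT livers. KO livers 1, 2 and 4 were below all WT livers, while KO livers 3 and 5 lay inside the WT range. The means were 86.3 ± 22.1 in KO and 112 ± 12.2 in WT (SD, n = 5 each). The change was -0.41 ± 0.19 (limma adjusted p = 0.499, unadjusted p just under 0.05). The 95% interval of the KO over WT fold ran from 0.573 to 0.995. Without KO liver 2, the lowest, the change was -0.28, and without KO liver 5, the highest KO liver, it was -0.52. Ier3 lies on chromosome 17, as do Pim1 and Zfp36l2, and whether strain-linked sequence near the disrupted gene has a part in these values was not tested.

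Ier3 is also a gene induced by the transcription factor NF-kappa-B, and so are Nfkbia and Cxcl1, AU-rich-element targets outside the 10. Limma called Nfkbia and 2 of 3 Cxcl1 probe sets higher in KO, as described further on, and the promoters are shown because the Ier3 change had the opposite sign. The 250 bases before each annotated start (RefSeq, GRCm38.p6) were searched on both strands for the NF-kappa-B consensus, written as GGGRNNYYCC. R is A or G, Y is C or T and N is any base. Matches to this form are in capitals, and similar sequences that depart from it stay in lower case. Ier3 is at chr17:35821463-35821712 on the plus strand, Nfkbia at chr12:55492648-55492897 on the minus strand and Cxcl1 at chr5:90890995-90891244 on the plus strand, each printed 5' to 3' on the gene's strand.
Ier3: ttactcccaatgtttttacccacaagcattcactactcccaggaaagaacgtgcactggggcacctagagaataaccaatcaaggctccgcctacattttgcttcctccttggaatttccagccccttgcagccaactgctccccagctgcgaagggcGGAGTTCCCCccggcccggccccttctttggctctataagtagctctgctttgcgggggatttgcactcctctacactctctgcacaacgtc
Nfkbia: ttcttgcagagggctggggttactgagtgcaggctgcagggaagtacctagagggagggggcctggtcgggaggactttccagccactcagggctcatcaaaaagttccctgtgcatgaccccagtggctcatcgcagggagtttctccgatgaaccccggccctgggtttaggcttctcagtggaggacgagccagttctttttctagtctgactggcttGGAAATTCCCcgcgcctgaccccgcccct
Cxcl1: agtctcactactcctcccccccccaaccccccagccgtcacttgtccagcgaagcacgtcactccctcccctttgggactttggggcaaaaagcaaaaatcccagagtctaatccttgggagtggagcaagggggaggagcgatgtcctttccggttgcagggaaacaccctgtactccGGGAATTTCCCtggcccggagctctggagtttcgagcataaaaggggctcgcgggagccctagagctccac
The match begins 92 bases before the start in Ier3 and 29 bases before it in Nfkbia, and Cxcl1 has overlapping matches that begin 71 and 70 bases before it. A match was found in 7.3% of 32851 promoters, and in 1 of the 10 promoters listed for 8 member genes, that of Ier3. The table has no entry for Ccnd1 and Myc. A match is a description of the letters and was not tested as a site. These genes were chosen for this display after their values were seen.

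Plaur encodes the urokinase receptor, a surface protein of myeloid and migrating cells, and its mRNA carries an AU-rich element. The only probe set, 1452521_a_at, read 46.2, 25.5, 23.7, 40.5 and 19.9 in KO livers, against -17.1, 11.5, 70.7, 14.3 and 55.5 in WT livers. The WT livers spanned the KO range on both sides, and 3 of them were under 16. The change was 0.10 ± 0.44 (limma adjusted p = 0.969), and the 95% interval of the fold ran from 0.557 to 2.06. It was 0.42 without WT liver 3 and -0.11 without WT liver 4.

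Among the survival factors, Mcl1 gave the most precise measurement. MCL1 is a short-lived antiapoptotic protein of the BCL2 family on which blood progenitors depend. Probe set 1448503_at read 1244, 1382, 1453, 1297 and 1410 in KO livers, against 1167, 1385, 1354, 1225 and 1535 in WT livers. The lowest and the highest value were both from WT livers, and the means were 1357 ± 85.5 in KO and 1333 ± 144 in WT (SD, n = 5 each). The change was 0.03 ± 0.07 (limma adjusted p = 0.944), with a 95% upper bound of 1.14-fold. All 6 Mcl1 probe sets had changes between -0.07 and 0.04, with upper bounds between 1.09-fold and 1.20-fold.

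Bcl2, the founding antiapoptotic gene of that family and a carrier of an AU-rich element with several binding proteins, was near the lower limit of the array. Probe set 1457687_at read 34.8, 29.4, 17.6, 22.5 and 5.3 in KO livers, against 38.6, 10.5, 47.7, 32.7 and 25.2 in WT livers. The genotypes overlapped over most of their ranges, with 1 liver of each under 16. The change was -0.38 ± 0.33 (limma adjusted p = 0.772), and the second tested probe set, 1443837_x_at, had -0.01 ± 0.31 (adjusted p = 0.994). These 2 probe sets did not vary together over the 10 livers (r = -0.04). The remaining 3 probe sets were at or below 0 in 3, 7 and 4 of the 10 livers.

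Myc encodes a growth-promoting transcription factor and has one of the classic AU-rich mRNAs. Its probe set, 1424942_a_at, read 381, 449, 362, 366 and 355 in KO livers, against 454, 384, 411, 421 and 335 in WT livers. The lowest and the highest liver were both WT, and the means were 383 ± 38.2 in KO and 401 ± 44.6 in WT (SD, n = 5 each). The change was -0.07 ± 0.09 (limma adjusted p = 0.882), and a rise above 1.10-fold lay outside its 95% interval. With arrays scaled to a common median in place of quantiles its sign turned, to 0.004.

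Ccnd1 encodes cyclin D1, which drives entry into the cell cycle, and showed the largest positive change of the 9 tested members. Probe set 1417420_at read 731, 956, 494, 751 and 626 in KO livers, against 714, 489, 531, 615 and 626 in WT livers. KO livers 1, 2 and 4 were above every WT liver, and KO liver 3 was second lowest of all 10. The means were 712 ± 171 in KO and 595 ± 87.7 in WT (SD, n = 5 each), the change was 0.24 ± 0.14 (limma adjusted p = 0.630), and the 95% upper bound was 1.45-fold. It was 0.12 without KO liver 2 and 0.36 without KO liver 3. Probe sets 1448698_at and 1417419_at had changes of 0.12 ± 0.17 and -0.01 ± 0.18.

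Notch1 encodes a receptor of cell fate signalling that guides early blood and lymphoid development. Probe set 1418634_at read 168, 84.3, 66.1, 106 and 151 in KO livers, against 134, 117, 113, 101 and 177 in WT livers. KO livers 2 and 3 were the lowest, and the others lay within the WT range. The change was -0.21 ± 0.24 (limma adjusted p = 0.844), with means of 115 ± 43.5 in KO and 128 ± 29.6 in WT (SD). Without KO liver 3 it was -0.03. The dimmer 1418633_at gave -0.22 ± 0.33, with 2 KO livers under 16.

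Stat5b encodes a transcription factor that carries cytokine signals, among them erythropoietin and thrombopoietin, to the nucleus. Probe set 1422103_a_at read 160, 193, 161, 165 and 152 in KO livers, against 131, 167, 188, 192 and 151 in WT livers. KO livers 1, 3, 4 and 5 and the KO mean lay inside the WT range, with means of 166 ± 15.5 in KO and 166 ± 25.6 in WT (SD, n = 5 each). The change was 0.01 ± 0.13 (limma adjusted p = 0.985), and that of 1422102_a_at was -0.32 ± 0.26 (adjusted p = 0.747).

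Pim1, a cytokine-induced serine/threonine kinase that favours survival and is switched on through STAT5, had small positive changes on both probe sets. Probe set 1435458_at read 675.7, 915, 716, 726 and 681 in KO livers, against 675.7, 782, 637, 683 and 671.5 in WT livers. KO liver 2 was the highest and the other KO livers lay within the WT range. The means were 743 ± 98.6 in KO and 690 ± 54.3 in WT (SD, n = 5 each). The change was 0.10 ± 0.09 (limma adjusted p = 0.764), bounded at 1.22-fold above, and without KO liver 2 it was 0.02. Probe set 1423006_at had 0.15 ± 0.13 (adjusted p = 0.764), bounded at 1.34-fold.

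Plk3, a polo-like kinase of the stress and DNA damage response, could not be tested. Its probe set, 1434496_at, read -19.5, -18.3, -15.9, -34.3 and -7.4 in KO livers, against -18.3, -46.1, -28.3, -46.3 and -21.8 in WT livers. All 10 livers were below 0, so neither a level nor a fold can be given.

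**Figure D2:**
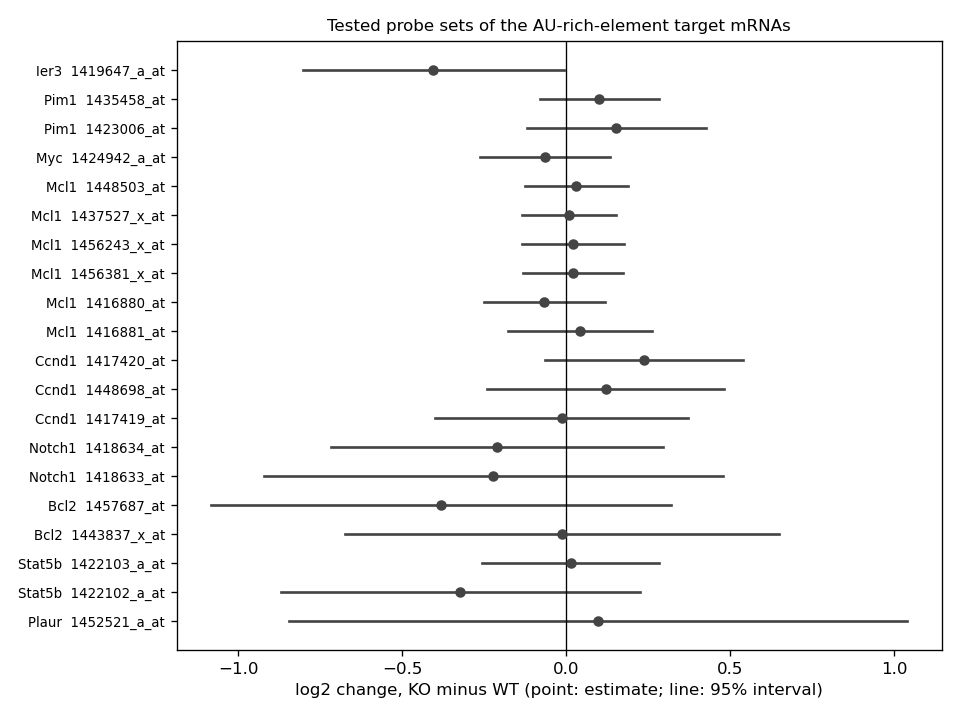
Log2 change (KO minus WT, limma) of the 20 tested member probe sets with 95% intervals. The intervals of Mcl1, Pim1 and Myc are narrow, those of Bcl2, Plaur and the dim Notch1 probe set are wide, and Ier3 is the only interval that excludes 0, with an adjusted p of 0.499.

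The width of the intervals set how firmly a rise could be bounded. Upper bounds of the fold were 1.10 to 1.23 for the representing probe sets of Myc, Mcl1, Pim1, Stat5b and Notch1, and 0.995 for Ier3. For Ccnd1 the bound was 1.45, for Bcl2 1.25 and for Plaur 2.06, also on the representing probe sets. Other tested probe sets had bounds of 1.57 for Bcl2, 1.39 for Notch1 and 1.34 for Pim1. All bounds are those after quantile normalization. These are bounds on the whole liver's mRNA, and a rise in a minor cell type within them was not detectable at this precision. For dim probe sets the floor of 16 also narrows the measured fold.

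Livers of 1 genotype differed from each other in these mRNAs. KO liver 2 was the highest of all 10 in 3 members, Pim1, Ccnd1 and Stat5b, and the lowest in Ier3. WT liver 1 was the lowest in Mcl1 and Stat5b, and WT liver 3 the highest in Ier3, Bcl2 and Plaur. Between members, the lowest correlation over the 10 livers was that of Ier3 with Pim1 (r = -0.76) and the highest that of Myc with Bcl2 (r = 0.61). Genes of a liver share its array and its normalization, and these correlations are given as a description. Probe sets of one gene varied together for Ccnd1 (r of 0.64 to 0.83 over 3 pairs) and Pim1 (r = 0.68), less for Notch1 (r = 0.53) and Stat5b (r = 0.32), and unevenly for Mcl1 (r of -0.19 to 0.93 over 15 pairs).

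**Figure D3:**
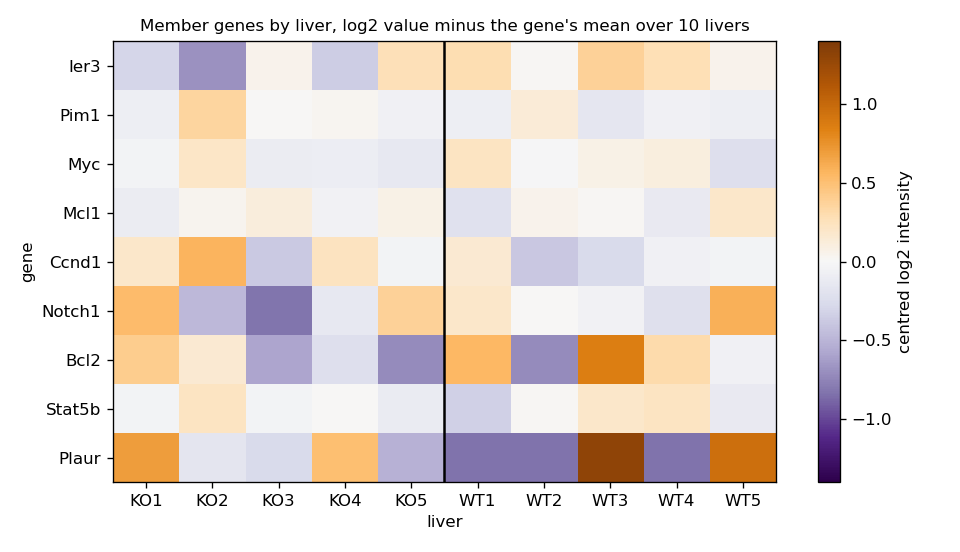
Log2 value of each tested member in each liver after subtraction of the member's mean over 10 livers, KO livers left of WT livers. KO liver 2 has the highest Pim1, Ccnd1 and Stat5b and the lowest Ier3, and no gene separates the KO from the WT livers.

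For each tested member the gene with the most similar pattern was sought among 12820 other genes by the Pearson correlation of log2 values over the 10 livers. For Ccnd1 this was Bgn, which encodes the matrix proteoglycan biglycan (r = 0.986, and 0.966 without the livers farthest from the Ccnd1 median, KO liver 2 and WT liver 2). For Myc it was Apex1, a DNA repair endonuclease (r = 0.943, and 0.881 without WT liver 1 and KO liver 2). For Mcl1 it was Setd3, a histidine methyltransferase of actin (r = 0.953, and 0.941 without WT livers 1 and 5). Bcl2 was closest to F2r, the thrombin receptor (r = 0.935, and 0.941 without WT liver 3 and KO liver 5), and Ier3 to Gsta4, a glutathione transferase (r = 0.923, and 0.816 without KO livers 2 and 4). For Pim1 the closest was the dim Bpifb5 (r = 0.946), and r was 0.477 without KO liver 2 and WT liver 2. Stat5b was closest to Zfp949 (r = 0.934, and 0.877 without the 2 farthest livers) and Notch1 to Xpa (r = 0.888, and 0.731 without them). Plaur was closest to Gria3, which averaged 14.0 and so lay under the floor (r = 0.939, and 0.869 without them). A highest value out of so many genes over 10 livers is a description of likeness, with no test.

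Partners of the members were counted in lists of their pathways, which also hold the members themselves. The BCL2 family, STAT5 and PIM and PLK lists hold 2 members each. The MYC, D cyclin, Notch and urokinase lists hold 1 each, and a gene may stand in several lists. In the BCL2 family 0 of 13 tested genes were called by limma (0.328% of all genes). An unadjusted p under 0.05 was found in 1 (11.4% of all genes), and the median change was -0.08. The smallest p was that of Bad, a proapoptotic member, which read 64.5, 102, 116, 105 and 129 in KO livers, against 138, 115, 134, 133 and 178 in WT livers (-0.46 ± 0.18, adjusted p = 0.416). Bcl2l1, which encodes BCL-XL, averaged 729 in KO and 828 in WT. In the MYC network 0 of 10 were called and 1 had an unadjusted p under 0.05, with a median of -0.07. That gene was Mlx, a dimerization partner of the MXD repressors, with a change of 0.40 ± 0.13 (adjusted p = 0.267), and Mxi1, a MYC antagonist, averaged 565 in KO and 600 in WT.

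Among cyclin D and its partners 0 of 8 genes were called by limma (0.328% of all genes). An unadjusted p under 0.05 was found in 0 (11.4% of all genes), and the median was -0.05. Ccnd3, the D cyclin of red cell precursors, had the smallest p and averaged 1859 in KO and 2027 in WT, with a change of -0.12 ± 0.06 (adjusted p = 0.531). In the Notch pathway 0 of 13 were called, 2 had an unadjusted p under 0.05, and the median was -0.01. The Notch ligand gene Dll4 had the smallest p, with a change of 0.93 ± 0.30 (adjusted p = 0.263) and 3 WT livers under 16. Its second probe set, 1421826_at, had a change of -0.02 ± 0.42 (adjusted p = 0.992). Notch2, a second receptor, averaged 234 in KO and 223 in WT.

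STAT5 signalling held 0 called genes of 12 tested (0.328% of all genes), and its median was -0.09. An unadjusted limma p under 0.05 was found in 4 (11.4% of all genes), 2 higher and 2 lower in KO. The higher ones were the feedback inhibitor gene Socs3 (0.76 ± 0.20, adjusted p = 0.163) and Id1, an inhibitor of bHLH factors (0.31 ± 0.14, adjusted p = 0.498). Of the lower ones, Jak2, the kinase that activates STAT5 below the erythropoietin receptor, read 338, 333, 376, 338 and 372 in KO livers, against 395, 458, 463, 458 and 504 in WT livers. Every KO liver was below every WT liver, at -0.37 ± 0.08 (adjusted p = 0.0715). Epor, the erythropoietin receptor, read 677, 1085, 939, 1108 and 722 in KO livers, against 1151, 1305, 1170, 1165 and 1258 in WT livers, also without overlap, at -0.44 ± 0.12 (adjusted p = 0.151). Of 8 tested erythroid markers 7 had negative changes with 0 called by limma. In 6 the unadjusted p was under 0.05, all of them lower in KO (5.44% of all genes). The median of the 8 was -0.23, and their summed intensity was 26748 to 30301 in KO and 27561 to 35714 in WT. Slc4a1, the red cell anion exchanger gene, averaged 7896 in KO and 7929 in WT. Whether red cell content has a part in the Jak2 and Epor values was not tested.

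Among the PIM and PLK kinases 0 of 6 tested genes were called by limma (0.328% of all genes). An unadjusted p under 0.05 was found in 3 (11.4% of all genes), and the median was 0.17. Pim3 read 229, 207, 190.4, 195 and 191 in KO livers, against 167, 164, 129, 121 and 147 in WT livers. All KO livers were above all WT livers, at 0.48 ± 0.12 (adjusted p = 0.114), whereas Plk1, a mitotic kinase, averaged 694 in KO and 863 in WT. Of the urokinase system 0 of 5 were called, with 1 unadjusted p under 0.05 and a median of 0.06. Its smallest p was that of the dim inhibitor gene Serpinb2 (-0.94 ± 0.30, adjusted p = 0.243), and Plg, the plasminogen gene, averaged 3114 in KO and 2981 in WT. Of 9 tested genes in the list of AU-rich-element binders, which also holds the Pumilio gene Pum2, 1 was called, Zfp36l2 itself. An unadjusted limma p under 0.05 was found in 6 (11.4% of all genes), and the median was -0.11. Both include Zfp36l2, the disrupted gene, whose fall was set by the design. Zfp36l1 and Zfp36 were the 2 higher ones, and Zfp36l2, Khsrp, Hnrnpd and Pum2 the 4 lower ones.

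Further targets of the tristetraprolin family, 45 genes outside the 10 members, were counted in the same fit. Of 28 that were tested, 22 had positive changes (50.1% of all genes), 12 had an unadjusted limma p under 0.05, all of them higher in KO (5.94% of all genes), and 1, Nfkbia, was called higher. Among the 28, Mmp9 and Ccl3 passed the filter through their KO mean alone and Ccl2 through its WT mean alone, so these counts describe the genes that passed. Of the 43 genes with a probe set, without the filter, 35 had positive changes (54.0% of all genes) and 10 an unadjusted p under 0.05, all higher (4.28% of all genes). The median change was 0.40 over the 28. It was 0.20 over the 43 without the filter, 0.20 with values floored at 32, 0.26 with an offset in place of the floor and 0.23 without KO liver 2. A further 15 had a probe set but were too dim to be tested, among them the cytokine genes Tnf, Il6 and Csf2, the classic targets of the family. The list was drawn up with earlier results of these data known, so its counts beside those of all genes are a description. The difference between this list and the members was not tested.

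Nfkbia encodes the inhibitor IkB-alpha, which holds NF-kappa-B in the cytoplasm. Probe set 1420088_at read 714, 725, 662, 494 and 649 in KO livers, against 373, 426, 378, 362 and 468 in WT livers. All KO livers were above all WT livers, and Nfkbia rose by 0.69 ± 0.10 on the log2 scale (limma adjusted p = 0.0148). The call was lost without WT liver 3 (adjusted p = 0.0503) or WT liver 4 (adjusted p = 0.0538), and with a floor at the lowest positive value or at 32, without the filter and without the trended prior variance (adjusted p of 0.0517 to 0.168). Its other 3 tested probe sets overlapped between genotypes, with uncalled changes of 0.24 to 0.39. Another, 1420089_at, was too dim to be tested, at -0.491 to 19.97 in KO livers and -0.928 to 24.99 in WT livers.

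Cxcl1 encodes a chemokine that attracts neutrophils and was chosen for description after its values were seen. Probe set 1457644_s_at read 114, 231, 157, 113 and 241 in KO livers, against 22.9, 43.1, 3.3, 30.3 and 47.3 in WT livers. The genotypes did not overlap, and this probe set rose by 2.46 ± 0.32 on the log2 scale with 1 WT liver under 16 (limma adjusted p = 0.00417). Probe set 1419209_at was also called, at 2.42 ± 0.41 (adjusted p = 0.0285) with 3 WT livers under 16. The representing probe set, 1441855_x_at, was not called, at 1.37 ± 0.28 (adjusted p = 0.0584), and read 105, 141, 115, 110.0 and 157 in KO livers, against 58.6, 59.1, 46.5, 21.9 and 71.5 in WT livers. The call on 1419209_at was lost without any one of KO livers 1, 2, 3 and 5 or WT livers 1, 3 and 4 (adjusted p of 0.0529 to 0.0687). Over 21 alternatives limma called 1457644_s_at in 18, 1419209_at in 10 and 1441855_x_at in 7, and the first was lost with the lowest-positive floor, without the filter and without the trended prior variance (adjusted p of 0.0638 to 0.116).

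**Figure D4:**
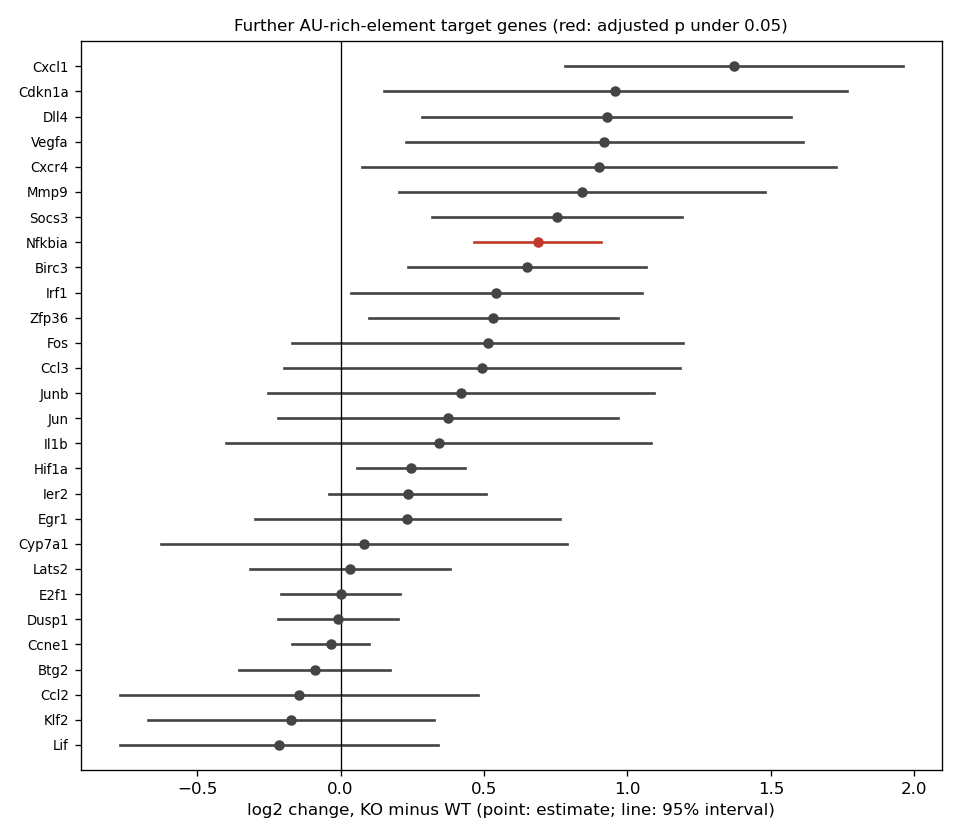
Log2 change (KO minus WT, limma) of the 28 tested further targets, 1 probe set per gene, with 95% intervals, ordered by the change; red marks an adjusted p under 0.05. Of the 28 points 22 lie right of 0, and Nfkbia, at 0.69, is the only one in red.

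Most tested myeloid markers had changes of the same sign as most genes of this list. All 9 tested macrophage markers had positive changes, with 0 called by limma (0.156% of all genes higher) and 6 at an unadjusted p under 0.05 (5.94% of all genes higher). Their median was 0.42, and their summed intensity was 5608 to 6547 in KO and 2862 to 5901 in WT. Lyz2, a lysozyme gene, averaged 2162 in KO and 1020 in WT and weighed most in the difference of these sums. Its change, 1.28 ± 0.30 (limma adjusted p = 0.0955), was the largest of the 9, and the others had changes of 0.17 to 0.50. Of 10 neutrophil markers 8 had positive changes, with 0 called and 7 higher at an unadjusted p under 0.05 (5.94% of all genes higher). The median of the 10 was 0.84, and their summed intensity was 14162 to 26777 in KO and 6348 to 28016 in WT. The 2 with negative changes were Mpo (-0.24) and Elane (-0.11), so the list did not move as a whole. S100a9, a calcium-binding protein gene of neutrophils, averaged 6876 in KO and 4234 in WT. WT liver 5 had the highest sum of the WT livers in both lists. Without it the WT sums were 2862 to 4075 for macrophage and 6348 to 18222 for neutrophil markers. The medians were then 0.49 and 1.15, and limma called 3 macrophage and 4 neutrophil markers higher. Leaving out the WT liver with the highest sums widens the gap by itself, so these calls are a description. Across the array limma then called 83 genes higher and 32 lower, against 20 and 22 with all livers. All 9 megakaryocyte markers had negative changes with an unadjusted p under 0.05 (5.44% of all genes). Of the 9, 7 did not overlap (2.79% of all genes in either direction) and 6 were called lower by limma (0.172% of all genes). The 9 had a median change of -1.11, and a summed intensity of 1698 to 2744 in KO and 3989 to 5783 in WT. Ppbp, a platelet chemokine gene, fell by 1.38 ± 0.13 on the log2 scale (adjusted p = 0.000146), at 825 in KO and 2146 in WT. Only Cd163 among the macrophage markers was too dim to be tested, at a mean of 4.69. Limma called 0 of 8 stem and progenitor, 6 B-lymphoid, 2 T and NK, 7 hepatoblast, 6 endothelial and 5 stellate markers, of which 2, 0, 0, 2, 2 and 0 had an unadjusted p under 0.05 (11.4% of all genes). The 2 stem and progenitor genes were Slamf1 (-1.27 ± 0.28, limma adjusted p = 0.0769) and Lmo2, both lower in KO without overlap. Of that list 3 changes were positive and 5 negative. The 2 hepatoblast genes, Fgb (0.51 ± 0.15, adjusted p = 0.198) and Hnf4a (0.26 ± 0.11, adjusted p = 0.438), were higher. Of the 7 hepatoblast changes 4 were positive. The 2 endothelial genes were also higher. The stem cell regulator gene Lmo2 averaged 2448 in KO and 2783 in WT, Igll1 of B cell precursors 144 in KO and 115 in WT, and Nkg7 of NK cells 19.8 in KO and 20.7 in WT. The endothelial receptor gene Lyve1 averaged 352 in KO and 318 in WT, and the collagen gene Col3a1 1111 in KO and 1075 in WT. The part of these cell types in the values of the AU-rich mRNAs was not tested.

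**Figure D5:**
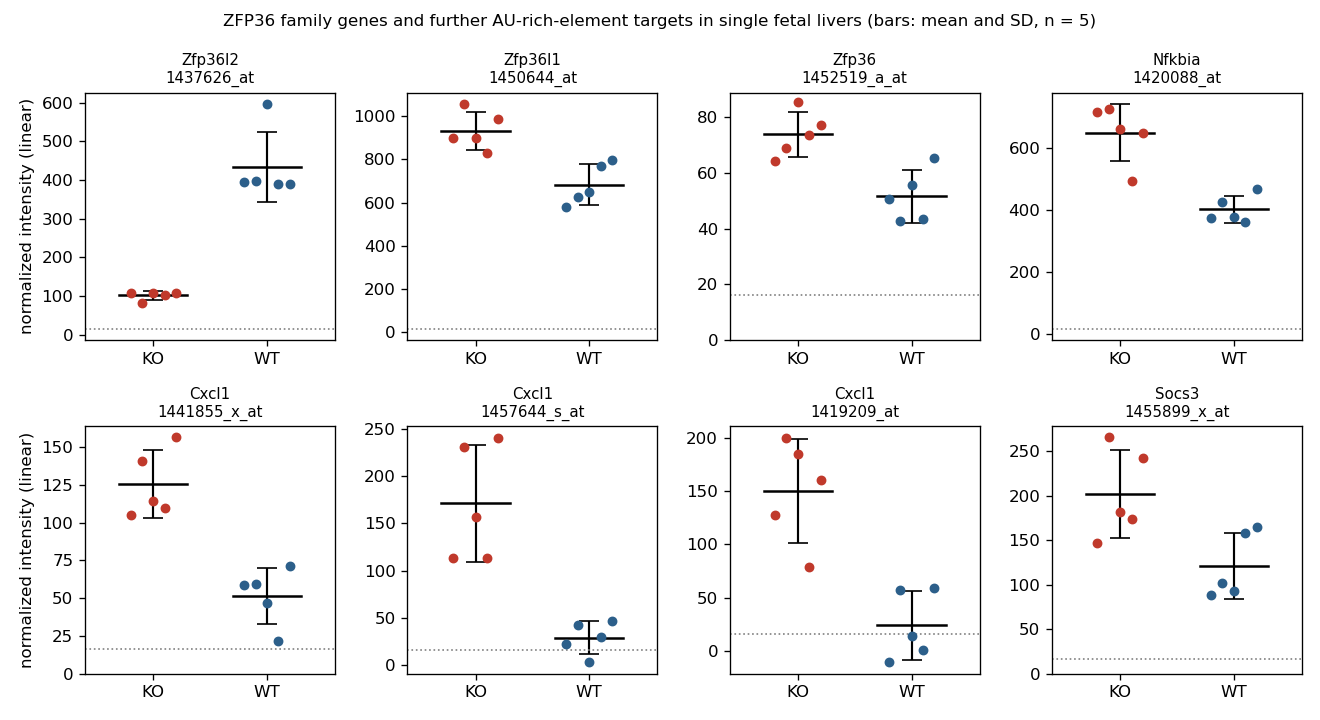
Normalized intensity (arbitrary units) of the family genes Zfp36l2, Zfp36l1 and Zfp36 and of Nfkbia, Cxcl1 and Socs3 in each liver, KO left of WT; points are livers, bars are means with SD over 5 livers, and the dotted line is the floor of 16. The KO points lie below the WT points for Zfp36l2 and above them for Zfp36l1, Nfkbia and the 3 Cxcl1 probe sets, while Zfp36 and Socs3 overlap.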

How the data were processed

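Per the labels' protocols, column-purified total RNA, 1 µg per liver, was made into biotin-labelled cRNA with an Affymetrix one-cycle kit. The deposited values are linear intensities, 1 per probe set and liver; how the authors scaled them, and with which program, is not given in the sources. They run from -1090 to 18272, and 21.5% are at or below 0. Of the probe sets 34945 carry 1 symbol, 932 several and 9160 none, and only the first kind was named. Array medians lay more than 10% apart, so the intensities were quantile-normalized, values under 16 were set to 16 (43.1% of values) and log2 was taken. A lowest-positive-value floor was kept as an alternative only, because it inflates folds of dim probe sets. Probe sets above the 40th percentile of mean log2 value, an intensity of about 18.4, entered a model with genotype as its single term (limma 3.58.1, R 4.3.3; functions lmFit and eBayes, trended prior variance, two-sided). The method was tested on simulated data with rises larger than any change of a member. That test does not bear on changes of the members' size. SDs are over 5 livers, 95% intervals are limma's, and the number of arrays limits precision. Named genes were the members, the family, and per list the called genes or else those with the smallest p and highest mean, and per marker list the highest mean; this picks genes to describe and compares no levels between probe sets. Cxcl1, Socs3, Id1, Mpo, Elane, Khsrp, Hnrnpd, Pum2, Slamf1, Fgb, Hnf4a and the promoter genes are described for their values. Cd3e, Cd3g and Cd163 are described as markers too dim to test. The counts of the further targets without the filter and by genotype mean, and the myeloid values without WT liver 5, were added after seeing the data. The members and lists were chosen with earlier results of these data known. The labels do not say that equal replicate numbers mark pairs, and the fit has no block. Alternatives covered scaling, floor, offset, filter, variance settings, the replicate block and leaving out each liver. Figures used matplotlib 3.10.9 in Python 3.11.15.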

Additional observations from a re-analysis of the deposited data

Results flagged for a closer look

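Single livers stood apart from the other 4 of their genotype in 11 of 104 groups examined by Dixon's test at 95%. For values without a floor, chance gives about 1 in 20, or 5.2. Values here are log2 intensities, each beside the nearest liver of its genotype. Among the members only Pim1 had such a liver, KO liver 2 at 9.84 against 9.50. Zfp36l2 had KO liver 2 at 6.36 against 6.68, and WT liver 3 at 9.22 against 8.63. Among the further AU-rich-element targets, KO livers stood apart in Dll4 (KO liver 5, 4.13 against 5.16), Cxcr4 (KO liver 2, 4.96 against 6.19) and Ccl2 (KO liver 2, 4.62 against 4.03). WT livers stood apart in Mmp9 (WT liver 5, 4.67 against 4.01), Cdkn1a (WT liver 3, 5.72 against 4.0), Ccl3 (WT liver 2, 4.75 against 4.05), Egr1 (WT liver 1, 6.98 against 7.53) and Ccl2 (WT liver 1, 5.37 against 4.0). KO liver 2 appears in 4 of the 11. A log2 value of 4.0 is the floor, so a single liver above a floored group is dim. The flagged groups of Mmp9, Cdkn1a, Ccl3 and Ccl2 held floored values, so the 11 cannot be set against 5.2.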

How the results depend on the processing

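The count of called members stayed at 0 for genes and for probe sets in each of 21 alternatives, and Zfp36l2 stayed called in all 21. Members at an unadjusted p under 0.05 numbered 0 with a floor of 32 and with array weights, and 0 to 2 when single livers were left out. That gene was Ier3, lower, except with median scaling (Ccnd1, higher, in its place) and without KO liver 3 (Ccnd1, higher, beside it). Signs turned for Myc with median scaling (0.0042), for Stat5b with array weights (-0.019) and with the mean of all probe sets (-0.15), and for Plaur with a floor of 32 (-0.21). Leaving out single livers gave -0.016 to 0.083 for Mcl1, -0.068 to 0.070 for Stat5b and -0.11 to 0.42 for Plaur. Called probe sets, 57, became 94 with median scaling (69 higher and 25 lower, against 29 and 28), 11 with the lowest-positive floor, 12 with a floor of 32, 4 without the filter, 9 without the trend, 101 with robust fitting, 103 with array weights and 179 with the replicate block. Called genes, 42, became 9, 7, 1 and 6 in the settings that lower the count, and 66, 70 and 121 in the last 3. Without single livers they ran from 13 to 168 probe sets and from 10 to 115 genes, the extremes being without WT liver 4 and without WT liver 5. The replicate block changed no member's call. Same-numbered livers deviated together with r of 0.03 to 0.13, over 0.1 in 1 of 5 pairs, while 7 of 10 livers correlated best with their own number, a hint from the data and not from the labels. Further targets called were 2 with median scaling, the values as deposited, an offset, robust fitting, array weights and the replicate block, 0 with both other floors, without the filter and without the trend, and 0 to 2 without single livers. Their median was 0.53 with the lowest-positive floor, 0.20 with a floor of 32, 0.26 (offset), 0.20 (no filter) and 0.23 to 0.46 without single livers. The STAT5 median was -0.0086 with median scaling, -0.0055 with a floor of 32, -0.19 with the lowest-positive floor, without the filter or at the 60th percentile, and -0.12 to -0.03 without single livers. The binders' median was -0.041 with median scaling and -0.13 to -0.011 without single livers. Nfkbia was called in 15 of 21 alternatives (adjusted p 0.00133 to 0.168) and Zfp36l1 in 5 of 21. Median scaling shifted the median of all genes by 0.06. The causes were not tested.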
